A study of Mus musculus with 11 samples.

Results

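The 5 wild-type libraries of a study of the kinesin KIF20A, out of 11 RNA-seq libraries in all, were described and compared with each other. All were made from mouse embryos at E12.5. The untreated group held 3 wild-type libraries, littermate controls of the germline Kif20a knockout, for which no tamoxifen was described. The tamoxifen group held 2 libraries, labelled as wild-type controls of the conditional knockout, from litters of dams dosed with tamoxifen on E9.5 and again on E10.5. The 3 knockout libraries of each experiment were used only beside the wild-type comparison, to see whether its differences recurred. The wild-type libraries were chosen by label, with earlier results of these data known. The labels name the tissue forebrain and the cell type neural cell, whereas the study's methods name cortical cells. In other experiments with the same dosing days the study names Kif20a fl/fl littermates as controls. Whether embryos were pooled, and whether the tamoxifen controls of these libraries carried floxed Kif20a alleles without Nestin-CreERT2, was not stated in the sources used here. Nor was the strain background of either set of litters given in detail: the knockout-first line came from chimeras of 1 embryonic stem cell clone crossed to C57BL/6J, and the conditional line had been crossed to Flp deleter mice as well. Tamoxifen, mouse line, litter and deposited table therefore changed together between the groups and cannot be told apart. Libraries of one group are called replicates here, and nothing in the labels says that they came from separate litters, so each p-value measures only the spread between these libraries.

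At this age the cortical wall consists mainly of radial glia, the stem cells that line the ventricle. They give rise to intermediate progenitors, which express Eomes, and to the first neurons. Blood vessels, primitive red cells, meninges and neighbouring forebrain regions contribute RNA according to how the tissue was dissected. Tamoxifen is an estrogen receptor ligand. It is used to release CreERT2, a Cre recombinase fused to a mutated receptor domain, into the nucleus, and it reaches wild-type littermates in the same uterus as well. In bulk tissue, fewer cells of a type and less RNA per cell cannot be told apart.

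Each deposited table holds counts that the authors equalized between the libraries of that table, with totals of 13658284 to 13880652 in the untreated and 24348693 to 24429826 in the tamoxifen libraries. Genes were therefore ranked within each library. To keep a readable scale, each rank was given the mean value of that rank over the 5 libraries, in ppm (parts per 1000000 of the library's autosomal total), called the rank-matched level below. Of 19583 autosomal genes, 12981 with a mean of at least 1 ppm were tested with limma. A gene was called when its Benjamini-Hochberg adjusted p, over all tested genes, was under 0.05 and its fold at least 1.5. Differences are log2, tamoxifen minus untreated, on the rank-matched level plus 0.25. The gene lists counted below were drawn up with earlier results of these data known. Their shares of called genes therefore describe these libraries and are not a test of the lists.

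The labels were checked first. Kif20a, the kinesin deleted in the study, had a rank-matched level of 192, 174 and 201 ppm in the untreated libraries and 198 and 202 in the tamoxifen libraries. Its levels overlapped between the groups and its log2 difference was 0.09 (SE 0.10, limma adjusted p = 0.555), and it stood between the 93.50th and 94.74th percentile of autosomal genes in all 5. Esr1, the estrogen receptor gene from which the CreERT2 domain derives, had 0, 0.03 and 0.82 normalized counts in the untreated and 0.987 and 0.00797 in the tamoxifen wild-type libraries. The 3 inducible knockout libraries, which carry Nestin-CreERT2, held 142, 163 and 135 normalized counts of Esr1, far above both tamoxifen controls.

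Y-linked genes differed between libraries. Kdm5d, a Y-linked histone demethylase, had 485, 1.63 and 1442 normalized counts in untreated replicates 1, 2 and 3 and 0 in both tamoxifen libraries. Eif2s3y had 398, 1.61 and 1019 against 0 and 0. Untreated replicate 3 thus held the most Y-linked RNA, replicate 1 an intermediate amount, and the other 3 libraries little or none. For this reason the genes of both sex chromosomes were left out of the comparison, which does not remove any sex difference of autosomal genes. Y-linked RNA was thus a further difference between the groups, although untreated replicate 2 also held little.

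The most abundant mRNAs were the same kinds in all 5 libraries. Levels between genes were compared per kilobase of exon, as ppm of the length-scaled values. The adult-type alpha globin Hba-a2 stood in places 1, 2 and 1 in the untreated and 3 and 1 in the tamoxifen libraries, with 20650, 12480, 13490, 11140 and 11210 ppm. Eef1a1, the elongation factor that brings tRNA to the ribosome, followed with a mean of 12020, and Tuba1a, the tubulin of young neurons, with a mean of 11220. The embryonic beta globin Hbb-y had a mean of 9813. Tuba1b, Tuba1c, Ubb, Hnrnpa1 and Ptma filled places 6 to 10 of the mean order. Among the next places were Actb, H1f0, Rpl32, Tubb2b, the neuronal transcription factor Sox11, Rps23, Rps26, Tubb5 and the imprinted Nnat. Tubulins, globins and ribosomal proteins thus made up most of the 20 leading genes, which carried 11.9 to 14.0% of the length-scaled signal. Near-identical tubulin and globin genes share reads, so the split among Tuba1a, Tuba1b and Tuba1c and between Hba-a1 and Hba-a2 is uncertain. H1f0, a linker histone of slowly dividing cells, was the member of these 20 with the widest gap between the groups. Its rank-matched level was 447, 443 and 433 ppm in the untreated and 734 and 725 in the tamoxifen libraries (log2 difference 0.73, SE 0.09, limma adjusted p = 0.0113).

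Markers of the dorsal telencephalon were present in every library. Pax6, the radial glial transcription factor, had 183, 176 and 169 ppm (rank-matched, as are the levels from here on) in the untreated and 138 and 193 in the tamoxifen libraries, and Sox2 had 176, 246 and 257 against 263 and 289. Eomes, the marker of intermediate progenitors, had 157, 134 and 126 against 144 and 159. None of these 3 genes was called, and the groups overlapped for Pax6 and Eomes. Among 26 tested radial glial genes, 1 was called higher (the FGF receptor Fgfr1) and 1 lower (the endothelin receptor Ednrb), against 10.8% called in either direction among all tested genes, and the median log2 difference of the list was 0.15. The median over all tested genes was 0.03. No gene was called among 15 dorsal telencephalon, 15 Cajal-Retzius, 22 ventral telencephalon, 10 diencephalon or 5 midbrain and hindbrain genes. Of the markers set for hindbrain, skin and muscle, Hoxb2, En1, Krt5, Myod1 and Myog were at or under 3 normalized counts in all 5 libraries. Egr2, of the hindbrain set, reached 4.52 and Trp63, of the skin set, 3.96. Epcam, also of the skin set, had 27.47, 53.95 and 73.95 normalized counts in the untreated and 133 and 148 in the tamoxifen libraries.

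Tissues around the neural wall were present at different levels among the libraries. Twist1, a regulator of head mesenchyme, had 2.53, 2.74 and 4.77 ppm in the untreated and 3.27 and 3.53 in the tamoxifen libraries. The endothelial cadherin Cdh5 had 16.3, 18.96 and 41.5 against 51.2 and 36.8, so untreated replicate 3 lay among the tamoxifen libraries. The embryonic alpha globin Hba-x had 285, 355 and 1018 against 692 and 834, and untreated replicate 3 was the highest of the 5. Of 20 endothelial genes, 3 (15%) were called higher with tamoxifen (Sox18, Slc2a1 and Mfsd2a), against 4.71% of all tested genes, and none of 18 erythroid, 23 mesenchymal or 12 pericyte genes was called. Transthyretin (Ttr), the main product of the choroid plexus, had 371, 370 and 85.2 against 90.2 and 102. It was high in untreated replicates 1 and 2 alone, and untreated replicate 3 lay below both tamoxifen libraries.

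The genes that ranged widest among replicates of one group included markers of forebrain regions, neurons and blood. Whether their tissue content differed was not tested. The rank correlation (Spearman, over 19583 autosomal genes) was 0.988 to 0.991 between untreated replicates, 0.996 between the tamoxifen replicates and 0.980 to 0.988 across groups. These are descriptions over genes, which are not independent. Of 9786 genes with a mean of at least 10 ppm, 1.27 to 2.12% differed at least 2-fold between untreated replicates and 0.143% (14 genes) between the tamoxifen replicates, all 14 of them lower in replicate 2.

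In the tamoxifen group the widest range was that of Nkx2-1, the homeobox gene of the ventral forebrain and hypothalamus, with 1902 normalized counts in replicate 1 and 79.0 in replicate 2, a ratio of 24.1. Sim1, a regulator of hypothalamic neurons, had 253 against 23.7. Lhx6, which marks interneurons leaving the medial ganglionic eminence, had 666 against 99.9. The neuronal factor Onecut2 had 1098 against 333, and the imprinted gene Magel2, expressed in the hypothalamus, had 982 against 313. Asb4, Ecel1, Tmem130, Nefl and Fgd5 were also among the 10 widest genes and were higher in replicate 1, from 1474 against 641 for Asb4 to 384 against 126 for Ecel1. Every one of the 10 was thus higher in the same library, and with 1 library on each side the difference has no replicate check.

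Most of the widest genes of the untreated group had replicates 1 and 3 as their extremes. Slc15a2, a peptide transporter, had 539, 97.3 and 6.42 normalized counts in replicates 1, 2 and 3, and Neurod6, a transcription factor of young cortical projection neurons, had 6005, 2756 and 679. Aldoc (1589, 502 and 111), Ndrg2 (1113, 487 and 156), Cdh13 (334, 184 and 40.1) and Inhbb (265, 170 and 41.0) had the same order, with replicate 2 between. Sim1 was instead lowest in replicate 1 and highest in replicate 2, with 20.7, 302 and 189, as was the imprinted growth regulator Dlk1, with 211, 1499 and 794. The embryonic beta globin Hbb-bh1 was highest in replicate 3, with 622, 1439 and 5806. The histone gene Hist1h2bn was highest in replicate 2, with 143, 596 and 95.2. For Neurod6 the rank-matched level of untreated replicate 3 (50.3 ppm) was close to that of the tamoxifen libraries (45.8 and 42.8), whereas replicates 1 and 2 had 459 and 208.

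**Figure D1:**
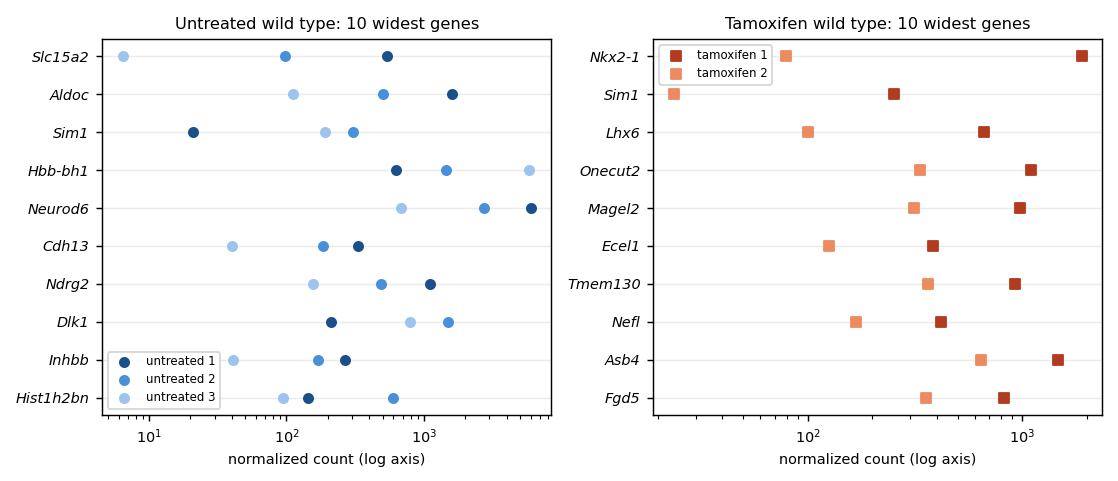
Normalized counts (log axis) of the 10 genes with the widest range among the untreated (circles, 3 libraries) and among the tamoxifen (squares, 2 libraries) wild-type libraries, each group on the scale of its own table. In the tamoxifen group all 10 genes were higher in replicate 1, and Nkx2-1 ranged from 79.0 to 1902.

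Between the groups, 1407 of 12981 tested genes were called, 10.8% of the genes tested. Of these, 612 were higher with tamoxifen (4.71%) and 795 lower (6.12%). The 2 groups did not overlap for all 1407, but they also did not overlap for 58.1% of all tested genes. The number called rested on the pair of tamoxifen libraries, which resembled each other closely: it was 38 without replicate 1 and 27 without replicate 2 of that group. It was 902 and 2137 without untreated replicates 1 and 3.

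Transcript base composition moved with the difference. The GC content of a gene's transcript, known for 12049 of the tested genes, had a Spearman correlation of 0.56 over genes with the log2 difference, whereas exon length had -0.0099. Genes were split into 10 classes of rising GC content. In the lowest class (33.1 to 42.2%) the median log2 difference was -0.51, and 31.7% were called lower and 0% higher. In class 9 (56.3 to 58.5%) the median was 0.33, and 12.9% were called higher and 1.58% lower. The median deviation of that lowest class was -0.33 and -0.28 in the tamoxifen libraries and 0.35, 0.061 and 0.20 in the untreated ones, so untreated replicate 1 lay farthest from them. GC content also moved within the untreated group, with a correlation of 0.42 for the difference of replicate 2 from replicate 1. It was -0.062 for replicate 2 against replicate 1 of the tamoxifen group. The genes called higher had a median GC content of 56.3% and those called lower 41.7%, against 50.6% for all tested genes.

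**Figure D2:**
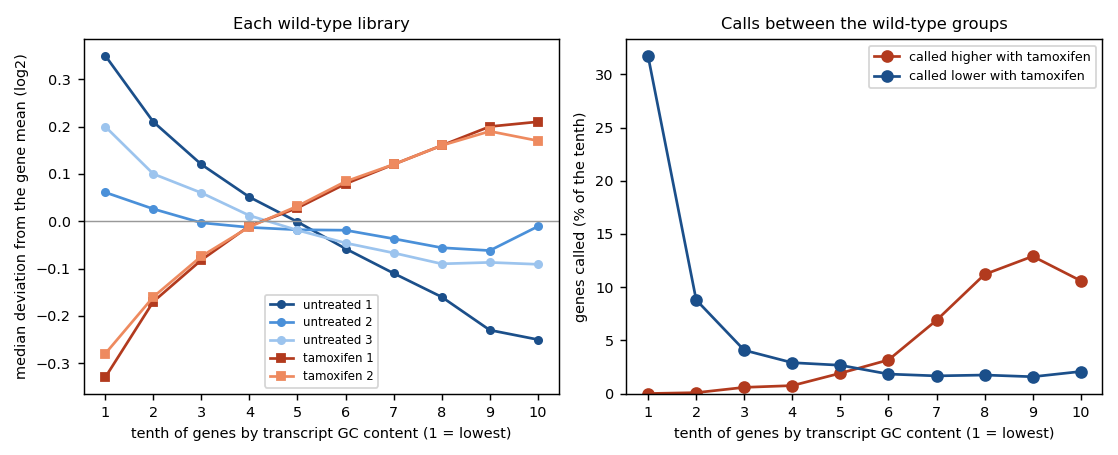
Left, median deviation of each wild-type library from the gene means (log2) in 10 classes of genes ordered by transcript GC content. Right, the percentage of genes of each class called higher (red) or lower (blue) with tamoxifen, which reached 31.7% lower in the class with the least GC.

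When each library's trend over GC content was removed, a step chosen after seeing the data, 35 genes were called higher (0.29% of 12049) and 138 lower (1.15%). Of the 612 genes called higher at first, 580 had a GC value and 30 were called again. Of the 795 called lower, 711 had a GC value and 119 were called again. No gene was called in the opposite direction. The GC-corrected counts are given below beside most of the groups of genes. They are to be read against these corrected shares, 0.29% higher and 1.15% lower. At such shares a short list would seldom hold a call, so a short list without one says little.

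Replication-dependent histone genes were the group with the largest difference. They encode the core and linker histones made in S phase, and their mRNAs end in a conserved stem-loop in place of a poly(A) tail, whereas these libraries were made from poly(A)-selected RNA. The stem-loop is shown for 1 gene of each histone family, since it is the feature that sets these mRNAs apart. The sequences are from the mouse reference NCBIM37, the assembly named mm9 by the authors, read 5′ to 3′ on the gene's strand, with both arms of the stem in capitals.
Hist1h1d (chr13:23647651-23647676, plus strand): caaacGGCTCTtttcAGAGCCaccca
Hist1h2ai (chr13:21808703-21808728, plus strand): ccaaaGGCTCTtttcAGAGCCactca
Hist1h2bp (chr13:21879787-21879812, plus strand): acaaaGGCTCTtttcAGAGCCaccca
Hist1h3d (chr13:23668108-23668133, plus strand): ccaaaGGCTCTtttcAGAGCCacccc
Hist1h4h (chr13:23623322-23623347, plus strand): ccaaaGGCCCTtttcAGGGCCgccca
Each lies in an annotated transcript of the gene that has a single exon. The pattern searched was a stem of 6 bases that opens with GG, a loop of 4 bases that opens with TTT, and the reverse complement of the stem, on the sense strand. It was found in a transcript of 42 of the 62 tested histone genes and in 0.0887% of the other protein-coding genes of the annotation. Of the 42 genes in which it was located in a single-exon transcript, 32 had the stem of Hist1h2ai, and the remaining 10, all H4 genes, had other stems, as in Hist1h4h. In Hist1h2ai the annotated transcript runs on for 598 bases after the stem-loop and in Hist1h1d for 3050 bases, whereas in Hist1h2bp it ends 38 bases after it. A match is a description of the letters and not of how a transcript was ended in these samples.

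Of the 62 tested histone genes, 23 were called lower with tamoxifen and 0 higher, 37.1% against the 6.12% called lower among all tested genes. The median log2 difference was -1.7, and 61 of 62 genes lay below 0. The members are near-identical copies that share reads, so they are not independent and single genes are uncertain. All 18 H2A genes were called lower. Their summed level was 3534, 3252 and 2509 ppm in the untreated and 811 and 822 in the tamoxifen libraries, so every untreated library was high. Hist1h2ai, a core H2A gene, had 217, 187 and 151 ppm against 47.1 and 47.7, which is 3.84-fold lower with tamoxifen (log2 difference -1.94, SE 0.16, limma adjusted p = 0.00358). It fell from the 95.28th, 94.12th and 91.99th percentile of genes to the 74.01st and 74.23rd.

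The other histone families had another pattern among the untreated libraries. The 12 H4 genes summed to 165, 681 and 141 ppm in the untreated and 66.6 and 74.5 in the tamoxifen libraries. The 12 H3 genes summed to 87.4, 307 and 75.8 against 31.8 and 37.5. The 15 H2B genes summed to 214, 587 and 173 against 132 and 128. The 5 linker histone genes summed to 27.0, 130 and 27.4 against 7.92 and 7.71. Untreated replicate 2 thus stood at the top in each of these families, and not in H2A. None of the H4 and none of the H2B genes was called, and 2 H3 genes and 3 H1 genes were. Hist1h1d, a linker histone, had 8.57, 48.3 and 9.79 ppm against 1.33 and 1.07 (log2 difference -3.50, SE 0.68, limma adjusted p = 0.024). Hist2h3c1 had 8.89, 56.0 and 9.43 against 2.75 and 1.72, and Hist2h3c2 had the same values in the untreated libraries. The annotated Hist2h3c1 transcript contains the stem-loop of the neighbouring Hist2h2aa1, so reads of these genes cannot be separated. The members nearest to 0 were both H2B genes. Hist2h2be, in whose transcript the pattern was not found, had 30.0, 33.5 and 30.6 ppm against 32.3 and 30.9. Hist3h2ba, in which it was found, had 50.4, 53.9 and 44.4 against 38.3 and 33.2.

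After GC correction 19 of the 61 histone genes with a GC value were called lower, against 1.15% of all genes with one. Of these calls 17 were H2A genes, which share reads, with 1 each in H1 and H2B and 0 in H3 and H4. Hist1h1d and Hist2h3c1 were not called (limma adjusted p = 0.0743 and 0.0779). The corrected median of the whole list was -2.0, the list being rich in GC (median 59.5%). The Duxbl genes on chromosome 14, homeobox genes of the Dux family, were lower as well, with 82.1, 92.2 and 116 ppm for Duxbl2 against 33.1 and 29.7 (log2 difference -1.60, SE 0.16, limma adjusted p = 0.00717), and Duxbl3 has the same values because the copies share reads.

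**Figure D3:**
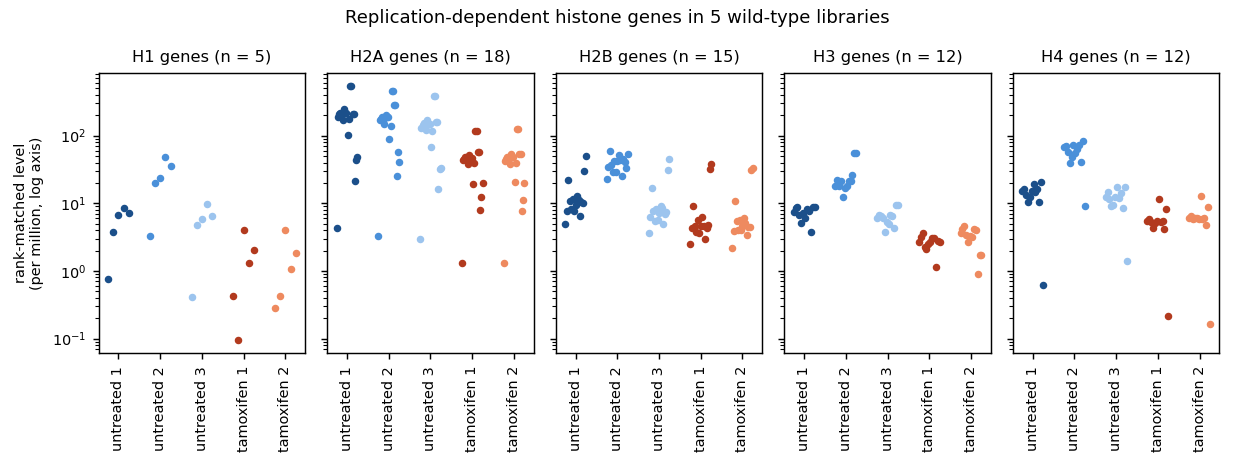
Rank-matched level (ppm, log axis) of each of 62 replication-dependent histone genes in the 5 wild-type libraries, one point per gene, by histone family. All 18 H2A genes were lower in both tamoxifen libraries, whereas in the other families untreated replicate 2 stood highest.

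Part of the neuronal genes were lower with tamoxifen. Of 29 tested neuronal genes 9 (31%) were called lower, against 6.12% of all tested genes, and 0 higher (median log2 difference -0.46). Of 21 factors of early cortical projection neurons 2 (9.52%) were called lower, Foxp2 and Mef2c, a share near that of all tested genes (median -0.51). Stmn2, a microtubule regulator of growing axons, had 415, 381 and 279 ppm in the untreated and 210 and 139 in the tamoxifen libraries (log2 difference -1.05, SE 0.22, limma adjusted p = 0.027). Gria2, an AMPA receptor subunit, had 367, 209 and 146 against 87.1 and 70.7. Elavl2, a neuronal RNA-binding protein, had 364, 263 and 218 against 122 and 126. Map2, a dendritic microtubule protein, had 1048, 1058 and 970 against 756 and 610. Replicate 3 was the lowest of the untreated libraries in each of these. Snap25, Stmn3, Celf4 and Myt1l were also called lower.

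Histones apart, 12 genes were named for the largest differences lower with tamoxifen. They were Arpp21, Rtl1, Grin2b, Lrrc7, Kcnh7, Duxbl1, Duxbl2, Duxbl3, Cacna1e, Gria2, Zbtb20 and the predicted gene Gm13298. Arpp21, an RNA-binding protein of maturing neurons, had 34.8, 25.8 and 13.3 ppm against 4.30 and 3.39, which is 5.69-fold lower (log2 difference -2.51, SE 0.37, limma adjusted p = 0.0182). Grin2b, an NMDA receptor subunit, had 22.3, 26.4 and 6.59 against 4.77 and 3.06. The potassium channel gene Kcnh7 had 32.7, 25.5 and 13.2 against 7.88 and 5.19, the calcium channel gene Cacna1e 75.6, 63.2 and 39.0 against 21.1 and 18.2, and the synaptic scaffold gene Lrrc7 50.1, 48.8 and 28.2 against 13.0 and 9.63. Tubb3, the pan-neuronal tubulin, did not have this pattern, with 608, 777 and 670 against 909 and 745. Rtl1, an imprinted retrotransposon-derived gene, had 18.5, 48.1 and 26.3 against 6.644 and 4.196. The zinc finger gene Zbtb20 had 39.3, 45.5 and 42.7 against 19.3 and 11.3. Of the genes named by this rule, Arpp21, Rtl1, Lrrc7, Cacna1e and Gm13298 were called again after GC correction. Grin2b, Kcnh7, Gria2 and Zbtb20 were not (limma adjusted p = 0.0912, 0.115, 0.148 and 0.0565), and the Duxbl genes had no GC value. After GC correction 1 of 28 neuronal genes (Celf4) and 1 of 21 projection neuron factors were called lower, against 1.15% of all genes with a GC value. The medians of the lists were -0.53 and -0.27. The neuronal list lies near the middle in GC content (median 50.6%), and the projection neuron list below it (47.9%).

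Differences of ribosomal protein genes were small. Of 74 tested cytosolic ribosomal protein genes 10 (13.5%) were called lower, against 6.12% of all tested genes, and 0 higher, and 4 lay above 0 (median log2 difference -0.39). Most of the list did not pass the test. Their summed share of the library's autosomal total, taken without rank matching, was 42480, 37180 and 35220 ppm in the untreated and 28580 and 31200 in the tamoxifen libraries. Rpl34 had 302, 256 and 230 ppm against 122 and 133 (log2 difference -1.04, SE 0.13, limma adjusted p = 0.0131), and Rps12 had 450, 384 and 366 against 196 and 214. Of 72 genes of oxidative phosphorylation 2 (2.78%) were called lower (Ndufa2 and Ndufa4), a share below that of all tested genes, with a median of -0.26, and after GC correction 1 was called lower, with a median of -0.30. Of the 73 ribosomal protein genes with a GC value 15 were called lower after GC correction, with a median of -0.51. Among all genes with a GC value 1.15% were.

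Among the 12 genes with the largest difference higher with tamoxifen were Etv4, Etv5 and Fgf17, which belong to FGF signalling. No list of that pathway was tested. FGF ligands pattern the anterior telencephalon, and the ETS factors Etv4 and Etv5 and the feedback inhibitors Spry1, Spry2 and Il17rd are transcribed in cells that receive the signal. Etv4 had 2.76, 4.38 and 6.29 ppm in the untreated and 18.4 and 22.4 in the tamoxifen libraries, 4.56-fold higher (log2 difference 2.19, SE 0.32, limma adjusted p = 0.0172). It moved from the 40.32nd, 43.47th and 46.18th percentile to the 57.75th and 60.87th. Etv5 had 24.8, 36.9 and 36.5 against 78.6 and 74.4 (log2 difference 1.24, SE 0.19, limma adjusted p = 0.0185). Fgf17, a ligand of the anterior midline, had 8.11, 10.8 and 23.1 against 35.3 and 55.8 (log2 difference 1.79, SE 0.42, limma adjusted p = 0.0322). These 3 genes came from the rule for the largest differences. The next were grouped with them after their values were seen and therefore support nothing further: Spry1 (16.7, 30.1 and 37.6 against 59.2 and 62.1), Spry2 (9.77, 14.6 and 15.6 against 22.9 and 25.8) and Il17rd (35.3, 61.2 and 78.6 against 120 and 126) were called. Fgf8, Fgf15 and Dusp6 were not, and Fgf8 had 1.04, 1.74 and 7.504 against 4.04 and 7.44. In each of these genes untreated replicate 1 was the lowest library. Etv4 and Etv5 were called again after GC correction, Fgf17 was not (adjusted p = 0.0941).

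Other genes at the head of the list had varied roles. Wdfy1, an endosomal protein whose mRNA level differs between inbred mouse strains, varied little within groups, with 20.5, 20.1 and 20.7 ppm against 70.1 and 60.6 (3.16-fold, log2 difference 1.66, SE 0.12, limma adjusted p = 0.00358). The class I histocompatibility gene H2-K1 had 8.49, 10.4 and 12.9 against 23.5 and 24.5. Of 17 tested genes known to vary between strains 3 (17.6%) were called higher (Wdfy1, H2-K1 and H2-D1), against 4.71% of all tested genes, and 1 (5.88%, Ide) lower, against 6.12%, and after GC correction 1 was called, Wdfy1. Nnt, which is deleted in part in C57BL/6J, had 47.1, 52.5 and 52.8 against 72.5 and 73.8 (log2 difference 0.53, SE 0.11), below the fold threshold. The proprotein convertase Pcsk6 had 11.7, 10.8 and 9.01 against 28.2 and 31.6. The amino acid transporter gene Slc7a5 had 34.2, 47.3 and 46.9 against 101 and 94.4, the sulfatase gene Sulf2 58.4, 109 and 117 against 220 and 225, and the desaturase gene Scd4 13.4, 20.6 and 20.3 against 41.0 and 44.6. Fbln2 and Vwf, of the vessel wall, completed the 12, with 6.69, 9.76 and 10.5 against 23.6 and 18.0 and with 7.05, 7.73 and 12.3 against 26.1 and 16.1.

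**Figure D4:**
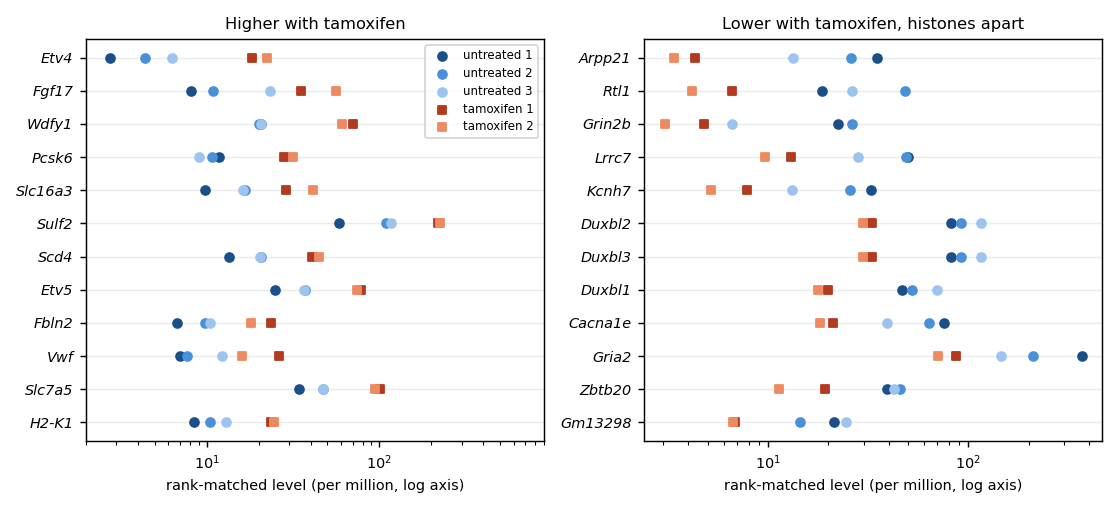
Rank-matched level (ppm, log axis) in each untreated (circles) and tamoxifen (squares) wild-type library of the 12 genes with the largest difference in each direction, with histone genes left out of the right panel. Etv4 ranged from 2.76 to 6.29 in the untreated and from 18.4 to 22.4 in the tamoxifen libraries.

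Part of the genes of cholesterol synthesis and uptake were higher with tamoxifen. The sterol pathway is switched on through SREBF2 when membrane cholesterol is low. Of 21 tested genes 8 were called higher and 0 lower, 38.1% against the 4.71% called higher among all tested genes, and 20 lay above 0 (median log2 difference 0.37). Dhcr7, an enzyme of the last steps, had 39.4, 52.4 and 57.1 ppm in the untreated and 92.1 and 100.1 in the tamoxifen libraries (log2 difference 0.97, SE 0.17, limma adjusted p = 0.0211). Lss, which closes the sterol rings, had 41.1, 44.6 and 51.8 against 79.3 and 88.3 (log2 difference 0.87, SE 0.13, limma adjusted p = 0.0185). As for every called gene, the groups did not overlap in either, which was also so for 58.1% of all tested genes. Mvk, Tm7sf2 and Srebf2 were also called higher. After GC correction 3 of the 20 with a GC value were called higher, against 0.29% of all genes with one, and the median was 0.40.

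Part of the S phase genes were higher with tamoxifen. Of 41 tested S phase genes 11 (26.8%) were called higher, against 4.71% of all tested genes, and 1 (2.44%) lower, the cyclin gene Ccne2, with a median log2 difference of 0.37. Mcm3, a subunit of the replicative helicase, had 131, 178 and 164 ppm against 280 and 310 (log2 difference 0.91, SE 0.14, limma adjusted p = 0.0193). Cdt1, which loads that helicase, had 29.5, 35.8 and 40.2 against 65.6 and 75.8. Uhrf1, which maintains DNA methylation at the fork, had 179, 258 and 248 against 334 and 370. The genes of G2 and M phase did not move together: of 51 tested, 4 were called higher (Aurkb, Plk1, Incenp and Ncapd2) and 4 lower (Kif20b, Kif18a, Hmmr and G2e3), 7.84% each way against 4.71% and 6.12% of all tested genes, with a median of 0.04. The 4 that were higher have transcripts of 52.5 to 56.0% GC and the 4 that were lower of 37.9 to 41.7%. After GC correction 0 of the 8 were called, and 3 of the 41 S phase genes were called higher. Among all genes with a GC value 0.29% were called higher.

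Lists of glycolysis and of the cortical hem also held called genes. Of 35 tested hypoxia and glycolysis genes 11 (31.4%) were called higher and 1 (2.86%, Bnip3l) lower, against 4.71% and 6.12% of all tested genes, with a median log2 difference of 0.43. Gapdh had 985, 976 and 1064 ppm against 1593 and 1667, and Slc16a3, the lactate exporter, had 9.83, 16.7 and 16.2 against 28.9 and 41.3. After GC correction none of these was called, against 0.29% called higher and 1.15% lower among all genes with a GC value. Of 21 genes of the cortical hem and choroid plexus 4 (19%) were called higher (Wnt3a, Bmp6, Bmp7 and Rspo1), against 4.71% of all tested genes, all 4 of them secreted signals, and the median log2 difference was 0.32. Wnt3a, the signal of the hem, had 5.003, 7.68 and 10.1 against 13.9 and 19.4 (log2 difference 1.14, SE 0.30, limma adjusted p = 0.0421). Genes of the choroid plexus itself were not called. Kcne2, a potassium channel subunit, had 21.5, 20.2 and 3.32 against 3.52 and 3.63 (log2 difference -1.61, limma adjusted p = 0.153), and Ttr, given above, had a log2 difference of -1.24 (limma adjusted p = 0.171). None of the 4 was called after GC correction.

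Genes that could answer to tamoxifen as a drug, and further lists, were counted against the 10.8% called in either direction among all tested genes. The share called of each list ran from 0% to 21.1%, apart from 33.3% for the 3 muscle genes, and after GC correction 1 gene of the noncoding and imprinted list was called and none of the others. Of 16 tested estrogen receptor and response genes 1 was called higher (Igfbp4) and 1 lower (the membrane estrogen receptor gene Gper1), and their median log2 difference was 0.03. Pgr, the progesterone receptor gene that estrogen induces in many tissues, had 0.61, 1.87 and 1.23 ppm against 1.07 and 1.02. Esr2 had 3.48 to 5.90 normalized counts in the untreated and 10.7 to 12.8 in the tamoxifen libraries, whose tables are scaled apart, and was below the level needed for testing. Of 16 genes of xenobiotic metabolism 1 was called higher (Por) and 1 lower (Sult1a1), with a median of 0.13. Of 24 p53 targets 2 were called higher (Gtse1 and Sulf2) and 2 lower (Trp53inp1 and Rrm2b), with a median of 0.09, and of 24 chaperone genes 1 (Dnajb9, lower). Of 26 immediate early genes 2 were called higher (Ier2 and Srf, median 0.36), and of 17 interferon and antigen presentation genes H2-K1 and H2-D1. Of 18 nuclear noncoding and imprinted genes Rtl1 and Snhg11 were called lower. The microglial list had 1 call of 17 (Laptm5, higher) and the muscle list 1 of 3 (Ttn, lower). Among 19 intermediate progenitor and neurogenic genes Neurog1 and Rcor2 were called higher and Neurod1 and Elavl4 lower. None of 11 neighbours of Kif20a and none of 7 surface ectoderm genes was called.

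**Figure D5:**
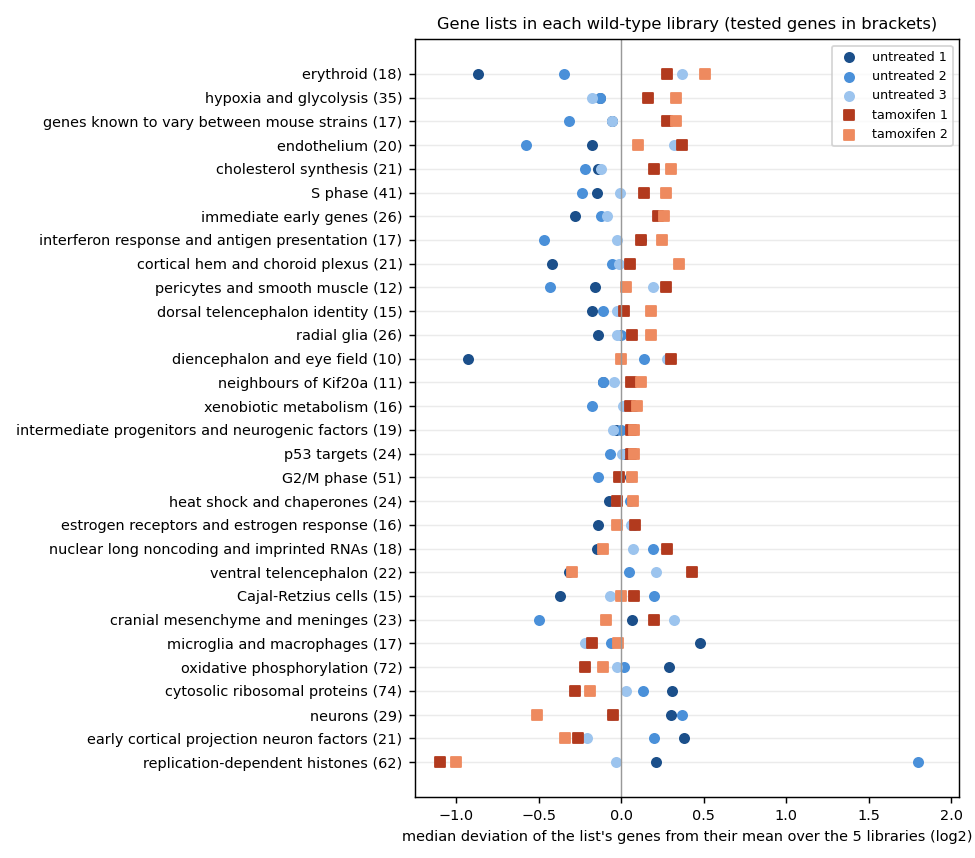
Median deviation of each list's genes from their mean over the 5 wild-type libraries (log2), one point per library, with untreated libraries as circles and tamoxifen libraries as squares. For the histones, ribosomal proteins and oxidative phosphorylation both tamoxifen libraries lay below all 3 untreated ones, whereas for erythroid and endothelial genes untreated replicate 3 lay between them.

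A like contrast was read in the knockout libraries, 3 without and 3 with tamoxifen, which shared no library with the wild-type comparison but shared its tables, lines and litters. It held further differences. Only the inducible knockouts carry Nestin-CreERT2. Kif20a had 30.6, 24 and 38.6 ppm of the library total in the germline and 128, 121 and 117 in the inducible knockouts. Kdm5d had 0.52, 0 and 398 normalized counts against 1350, 1259 and 1386, whereas in the wild type the untreated group held more. In the knockout libraries, 399 genes were called higher with tamoxifen (3.07% of 12981) and 478 lower (3.68%). Of the 612 genes higher in the wild type, 558 had the same sign in the knockouts, 185 (30.2%) were called the same way and 0 the opposite way. Of the 795 genes lower in the wild type, 775 had the same sign, 267 (33.6%) were called the same way and 0 the opposite way. The trend over GC content was present in the knockouts as well, with a Spearman correlation over genes of 0.34 against 0.56 in the wild type. Genes called in the wild type, in the knockouts and again in the wild type after GC correction were 21 higher and 78 lower. Leaving out replicate 2 of the germline knockouts, a step chosen after seeing the data, moved the median knockout difference of the 23 mesenchymal genes from 0.57 to -1.1. Without it, 1129 genes were called higher (8.70%) and 1007 lower (7.76%), and 244 and 407 of the wild-type calls were called the same way, with 3 called lower in the wild type and higher in the knockouts.

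The median difference of the histone, ribosomal protein, cholesterol and S phase lists had the same sign in the knockouts, whereas that of the hypoxia and glycolysis and of the hem and choroid plexus lists had the opposite sign. Of the 62 histone genes 50 were called lower there, with a median log2 difference of -1.8, and of the 74 ribosomal protein genes 31, with a median of -0.54. Among all tested genes 3.68% were called lower in the knockouts. Etv4 had 7.10, 5.48 and 6.68 ppm in the germline and 18.1, 18.95 and 18.1 in the inducible knockouts, and of the 12 genes with the largest difference higher in the wild type 5 were called again, Etv4, Etv5, Wdfy1, Scd4 and Slc7a5. The 7 not called were Fgf17, Pcsk6, Slc16a3, Sulf2, Fbln2, Vwf and H2-K1. Of the 12 non-histone genes with the largest difference lower, 5 were called again (the 3 Duxbl genes, Zbtb20 and Gm13298), and Arpp21, Rtl1, Grin2b, Lrrc7, Kcnh7, Cacna1e and Gria2 were not. Of the 21 cholesterol genes 2 were called higher in the knockouts, and of the 41 S phase genes 6, against 3.07% of all tested genes. The neuronal list of 29 genes had a median of -0.03 and 0 calls. Without germline knockout replicate 2 its median was 0.44 and 13 genes were called higher, against 8.70% of all tested genes. Hypoxia and glycolysis genes had a median of -1.1 in the knockouts. The study lists Eno1, Ldha, Pgk1, Tpi1 and Aldoa as up-regulated in its germline knockouts against their wild-type littermates. There Slc16a3 had 199, 117 and 26.7 ppm in the germline and 27.8, 23.4 and 34.7 in the inducible knockouts, so germline replicates 1 and 2 were high. The hem and choroid plexus list had a median of -0.53. Whether the difference between the wild-type and knockout contrasts exceeds their error was not tested.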

How the data were processed

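The authors purified poly(A) RNA, made TruSeq libraries, aligned reads to mm9 with TopHat (version 1.2.0 per the labels; the study's methods name another version), counted them on RefSeq exons and equalized the counts by the trimmed mean of M values, separately for each table. The deposited values are this normalized signal per gene, 20475 genes in each of 2 tables. They are not whole reads, so no count model was fitted, and a gene with few reads cannot be given an interval. 0 per-sample columns were left unused. Symbols were read from the row identifiers.

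Here, genes were ranked within each library, and ranks were replaced by mean values ppm (quantile normalization). Log2(value + 0.25) was tested with limma 3.58.1 (lmFit, eBayes with trend, two-sided) in R 4.3.3 on autosomal genes with a mean of at least 1 ppm, with Benjamini-Hochberg adjustment over all tested genes. The test was checked on simulated data. This normalization assumes that most genes keep their place. Exon lengths, GC content and stem-loops came from GENCODE on NCBIM37. The members and the 34 gene lists, 1 of them of sex-linked genes that were not tested, were chosen with earlier results of these data known. Genes were named by rule, being the 12 with the largest difference in each direction among called, non-overlapping genes with a mean of at least 10 ppm, the 20 most abundant per kilobase, the 10 widest within each group, fixed single genes, and called list members. The other lower non-histone genes were added after their values were seen, as was the GC correction (a lowess trend with a span of 0.3 per library). Some genes are not reported here.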

Additional observations from a re-analysis of the deposited data

How the results depend on the processing

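The number of called genes (1407, 612 higher and 795 lower) depended on the setting more than the direction of single genes did. Of 36 named genes, 35 kept their sign under all alternatives that gave a log2 value, with Pgr the exception, and of 33 lists 19 kept the sign of their median. Without a filter on low values 0 genes were called (0 higher, 0 lower) in limma, with 5221 of 17023 at an unadjusted p under 0.05, and the cause was not tested. Without the mean-variance trend 595 were called (202 and 393). With GC correction 173 were called (35 and 138), and with GC correction and the replicate block 963 (346 and 617). Leaving out 1 library gave between 27 and 2137 calls, 1 to 1037 higher and 26 to 1100 lower, with the lowest 2 counts from leaving out either tamoxifen library, whose lone partner is then assumed to vary like the untreated group. Scaling to the library total or the upper quartile gave 1565 and 1572 calls, of which 36.7% and 28.9% were higher, against 43.5%.

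Replicate numbers 1 and 2 occur in both groups. With the replicate number as a block, 2461 genes were called (1212 higher, 1249 lower). Deviations of same-numbered libraries had correlations of -0.092 and -0.20. With 2 tamoxifen libraries, whose deviations mirror each other, these values are not independent. Whether same-numbered libraries share more than a number was not tested. The values do not hold whole reads, so depth could not be given per library, and 2 tamoxifen libraries limit what can be called.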
